A study of Arabidopsis thaliana with 22 samples.

Results

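Among regions bound by RNA polymerase IV (Pol IV) in inflorescences of Arabidopsis thaliana, 115 carried a histone mark of active genes and had no peak of ZMP. They were found from peak lists of chromatin immunoprecipitation followed by sequencing (ChIP-seq). Peaks of NRPD1-HA, the tagged largest subunit of Pol IV, were merged over 4 lists into 9269 regions on chromosomes 1 to 5. Regions that touched a peak of plants without a transgene were dropped, which left 8688, and 4138 of these had a peak in all 4 lists. Of the 4138, 653 overlapped a peak of trimethylated lysine 4 of histone H3 (H3K4me3) by at least 1 base, and 115 of these 653 touched no ZMP-HA peak of either list. These 115 regions, the members, were 2.78% of the 4138. Presence of NRPD1-HA and H3K4me3 and absence of ZMP-HA are thus the measured values the members were chosen by, and are given here as a description without a test.

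All samples were inflorescences of the Col-0 ecotype. NRPD1-HA was expressed from its own promoter (pNRPD1::NRPD1-HA) in the zmp-2 mutant and in the wild type (WT), with 2 replicates each. ZMP-HA (pZMP::ZMP-HA) was profiled in WT with 2 replicates, and H3K4me3 in WT without a transgene with 1 library, so that no H3K4me3 value has a replicate check. The members were not profiled for H3K4me3 in zmp-2. The background was measured in WT plants without a transgene, in 2 sets of 2 replicates: set A, whose peaks were removed here, and set B, whose titles share a mark with ZMP-HA. The labels of set A name no antibody, although its titles call it an immunoprecipitation. In a whole inflorescence, NRPD1-HA and H3K4me3 at a region may come from different cells, and this cannot be told apart here.

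Pol IV is a plant-specific relative of RNA polymerase II. It makes short transcripts that are turned into small interfering RNAs, and these guide DNA methylation to transposons and other repeats. H3K4me3 sits around the 5′ ends of transcribed genes, and Pol IV is better known from silent chromatin, where this mark is low. ZMP is a chromatin protein that binds Pol IV and carries a PHD finger, a kind of domain that binds histone tails.

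The sequence under the NRPD1-HA summit is shown for 7 members, as 300 bases of the forward strand of TAIR10 around the summit of WT replicate 1. Capitals mark bases inside an H3K4me3 peak. The first 3 are the members whose worst rank by fold enrichment over the 4 NRPD1-HA lists was best. The next 2 have the longest stretch under H3K4me3, and the last 2 the largest falls in zmp-2 that passed the test given below. They lie at chr1:22542075-22542374, chr3:15271458-15271757, chr2:13404358-13404657, chr2:1747564-1747863, chr5:20594425-20594724, chr1:24623954-24624253 and chr2:5867045-5867344.
AT1G61150 region: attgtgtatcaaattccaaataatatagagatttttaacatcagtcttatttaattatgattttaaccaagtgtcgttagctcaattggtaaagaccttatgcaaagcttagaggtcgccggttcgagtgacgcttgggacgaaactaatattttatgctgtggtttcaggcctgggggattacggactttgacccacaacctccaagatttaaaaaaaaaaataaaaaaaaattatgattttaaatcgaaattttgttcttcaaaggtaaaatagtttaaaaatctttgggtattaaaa
AT3G43315 region: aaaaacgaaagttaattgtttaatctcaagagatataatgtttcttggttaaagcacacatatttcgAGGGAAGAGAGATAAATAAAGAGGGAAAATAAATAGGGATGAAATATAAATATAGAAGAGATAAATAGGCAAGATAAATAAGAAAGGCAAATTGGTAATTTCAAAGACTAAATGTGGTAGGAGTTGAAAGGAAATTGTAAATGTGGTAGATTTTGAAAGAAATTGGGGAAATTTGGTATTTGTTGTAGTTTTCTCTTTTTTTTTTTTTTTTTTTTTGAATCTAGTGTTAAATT
AT2G31450/AT2G31460 region: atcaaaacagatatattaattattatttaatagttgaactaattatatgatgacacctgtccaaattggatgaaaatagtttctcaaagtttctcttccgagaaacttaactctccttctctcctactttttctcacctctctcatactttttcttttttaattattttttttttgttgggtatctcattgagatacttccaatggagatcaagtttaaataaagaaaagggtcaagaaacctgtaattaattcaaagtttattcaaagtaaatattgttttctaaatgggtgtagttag
AT2G04970 region: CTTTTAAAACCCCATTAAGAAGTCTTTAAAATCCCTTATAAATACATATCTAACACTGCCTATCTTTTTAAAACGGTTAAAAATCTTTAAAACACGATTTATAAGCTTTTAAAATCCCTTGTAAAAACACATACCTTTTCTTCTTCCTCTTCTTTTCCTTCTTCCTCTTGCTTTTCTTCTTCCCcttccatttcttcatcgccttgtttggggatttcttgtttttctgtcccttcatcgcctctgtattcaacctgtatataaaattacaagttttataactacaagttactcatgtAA
AT5G50610 region: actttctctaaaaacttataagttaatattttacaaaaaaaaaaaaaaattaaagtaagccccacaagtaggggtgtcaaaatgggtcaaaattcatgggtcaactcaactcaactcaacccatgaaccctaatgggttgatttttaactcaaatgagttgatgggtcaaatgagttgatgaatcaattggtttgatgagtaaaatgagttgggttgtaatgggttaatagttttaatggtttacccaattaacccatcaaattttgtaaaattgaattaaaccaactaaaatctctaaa
AT1G66140 region: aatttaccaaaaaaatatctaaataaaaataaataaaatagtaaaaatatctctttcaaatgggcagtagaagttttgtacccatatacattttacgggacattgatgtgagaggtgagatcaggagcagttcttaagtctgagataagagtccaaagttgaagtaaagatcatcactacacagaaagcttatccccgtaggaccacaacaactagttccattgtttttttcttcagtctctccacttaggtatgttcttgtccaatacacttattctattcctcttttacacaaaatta
AT2G13975 region: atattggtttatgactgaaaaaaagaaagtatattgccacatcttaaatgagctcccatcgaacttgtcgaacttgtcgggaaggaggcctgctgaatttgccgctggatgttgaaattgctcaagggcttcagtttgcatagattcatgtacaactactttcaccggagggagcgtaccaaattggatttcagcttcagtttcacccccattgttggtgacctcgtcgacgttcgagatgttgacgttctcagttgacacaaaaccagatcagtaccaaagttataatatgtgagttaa
In 5 of the 7 windows no base lay inside H3K4me3. The mark covered 233 bases of the AT3G43315 window and 186 bases of the AT2G04970 window. Across these windows the share of G and C ran from 26.3% to 42.3%, and the number of CG dinucleotides from 0 to 11.

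Over all members, the same 300-base windows had a median G and C share of 31.7% (quartiles 28.8 to 36.2), against 38.0% (33.3 to 42.7) in the 4023 other regions. The median number of CG dinucleotides was 7 (3 to 11) in members and 9 (6 to 13) in the others. Of 5 short motifs searched on both strands, the GA repeat GAGAGAGA was held by 28 members, 24.3%, against 9.37% of the other regions. The share was 23.0% in the 538 regions with both H3K4me3 and ZMP-HA, and 5.14% in the 1324 regions with neither. Within the members, the repeat was in 15 of the 25 windows whose WT replicate 1 summit lay inside H3K4me3, and in 13 of the other 90. In the 538 regions with ZMP-HA the same split was 68 of 96 and 56 of 442. The GA repeat went with a summit inside H3K4me3 both without and with ZMP-HA. None of the 7 windows printed above holds it.

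The TATA box TATAAA was in 49 member windows, 42.6%, against 28.1% of the other regions and 41.2% of the 1324 regions with neither mark nor ZMP-HA. The RY motif CATGCA, a seed promoter element, was in 2 members, 1.74%, against 8.70% of the others. The telo-box AAACCCTA was in 4 members, 3.48%, against 5.22%, and the site II element TGGGCC, found in promoters of growth genes, in 4 members against 8.60%. Base composition differed between the groups as given above, and its part in these shares was not tested. No motif was tested either, since the windows are not replicates, and a match is not a binding site.

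The lists behind these regions held 7012 and 8655 peaks in zmp-2 NRPD1-HA and 7250 and 7518 in WT NRPD1-HA, against 440 and 952 in set A. The ZMP-HA lists held 7247 and 6730 peaks, and the H3K4me3 list 23884. The lists give no depth, and the background level behind most peaks of a library stood in for it. Peaks were called against input, so this level may not give the depth of the immunoprecipitation alone. The level was 26.7 and 38.8 fragments per base in zmp-2 and 25.1 and 41.1 in WT, so replicate 2 had the higher level in both genotypes. H3K4me3 had 5.38, so that weak H3K4me3 may have gone uncalled. As a check of the tissue, 4 of 6 floral regulators (AP1, PI, AG and SEP3) had an H3K4me3 peak within 500 bases of the 5′ end, and LFY and AP3 had none. Of a pair of seed genes, OLEO1 also had a peak and CRA1 had none, so the mark did not set the tissue apart sharply.

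The members lay mostly in chromosome arms. Their median width was 1139 bases (range 520 to 5963), against 2988.5 in the 538 regions with ZMP-HA on H3K4me3 and 909 in the 1324 regions with neither. They numbered 33 on chromosome 1, 24 on chromosome 2, 15 on chromosome 3, 20 on chromosome 4 and 23 on chromosome 5. A pericentromeric location, in the gene-poor centre of a chromosome, was seen in 14 members, 12.2% (95% exact binomial interval 6.82 to 19.6). The share was 30.1% in the regions with ZMP-HA and H3K4me3, and 11.9% in the regions with neither. Among members it moved to 19.9% without ZMP-HA replicate 1, 18.5% without WT NRPD1-HA replicate 2, 6.10% where each list had to cover 50% of the region and 4.35% with pericentromeres taken at a gene density under 25%. The 14 pericentromeric members were wider than the 101 in the arms, with medians of 1990.5 and 1030 bases, and 12 of the 14 had a ZMP-HA peak within 5000 bases, against 41 of the 101.

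The values on either side of the rule's edges were as follows. The members with the least H3K4me3 overlap shared 4, 4 and 5 bases with a peak, whereas 3 regions without ZMP-HA just outside lay 0, 1 and 6 bases from the nearest H3K4me3 peak. The members closest to ZMP-HA lay 162, 403 and 414 bases from a ZMP-HA peak. On the other side, the regions on H3K4me3 with the smallest ZMP-HA overlap shared 50, 259 and 325 bases summed over both ZMP-HA lists, and 78 of the 538 had ZMP-HA in 1 list only. Leaving out ZMP-HA replicate 1 or replicate 2 gave 166 or 142 members, so the number depended on how many ZMP-HA lists were asked. An overlap of at least 150 bases with H3K4me3 gave 48 members. None of the members touched a peak of set B.

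NRPD1-HA at the members was of middling to high strength. Fold enrichment over background at the highest summit had a median of 4.35 (2.03 to 10.5) and 6.60 (1.94 to 21.4) in zmp-2 replicates 1 and 2, and of 4.88 (1.65 to 37.9) and 4.79 (1.76 to 59.5) in WT replicates 1 and 2. The medians over all 4138 regions were 4.02 and 5.30 in zmp-2 and 5.00 and 4.21 in WT. The members thus stood at or above the usual level in 3 libraries and just under it in WT replicate 1. Values ranked alike within a genotype (Spearman correlation across the 115 members 0.807 in zmp-2 and 0.775 in WT). Across genotypes they ranked more alike between libraries with the same replicate number (0.709 and 0.750) than with different ones (0.598 and 0.559). These correlations are across regions of the same libraries and are given as a description.

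**Figure D1:**
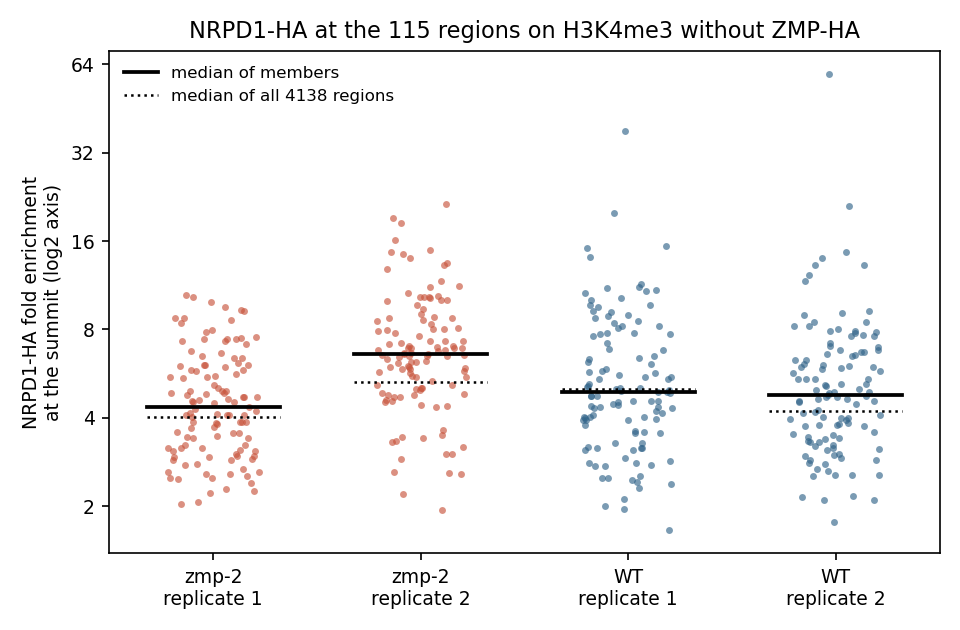
NRPD1-HA fold enrichment at the summit (log2 axis) of the 115 members in each of the 4 libraries, with solid lines at the median of the members and dotted lines at the median of all 4138 regions. Replicate 2 of zmp-2 has the highest member median, 6.60, and 2 WT points at 37.9 and 59.5 belong to the region beside AT1G66140.

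The strongest members by worst rank lay mostly just upstream of protein-coding genes. At AT1G61150, which encodes a protein with LisH and RanBPM domains, the region chr1:22541816-22542547 had a fold enrichment of 10.3 and 16.1 in zmp-2 and of 14.1 and 12.2 in WT. Its summit lay 174 bases upstream of the gene, and the H3K4me3 summit 231 bases inside it. The region between AT2G31450 (ATNTH1, a DNA glycosylase of base excision repair) and AT2G31460 (a putative B3 domain protein), chr2:13404144-13405254, had 9.31 and 19.2 in zmp-2 against 11.2 and 13.3 in WT. These genes are divergent, and H3K4me3 of 10.4-fold lay on the ATNTH1 side.

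Further strong members also had the Pol IV summit upstream of a gene. The region at AT1G47290, annotated as a 3-beta-hydroxysteroid dehydrogenase of sterol synthesis, had 10.5 and 21.4 in zmp-2 against 9.69 and 13.3 in WT, with its summit 161 bases upstream. At AT5G55190 (RAN3, a small GTPase of nuclear transport) the values were 8.58 and 14.7 in zmp-2 against 8.96 and 11.7 in WT, with the summit 225 bases upstream. At AT3G21465, annotated as an adenylyl cyclase, they were 9.89 and 14.1 in zmp-2 against 10.8 and 7.90 in WT. In these 3 regions H3K4me3 was 3.34-, 6.75- and 3.46-fold over its background. The region at AT3G46570, a glycosyl hydrolase gene, had 8.44 and 14.4 in zmp-2 against 8.88 and 8.19 in WT, with H3K4me3 of 2.88-fold. Except at AT3G21465 and AT3G46570, where the zmp-2 values were the higher after centring, the genotypes overlapped in each of these 6 regions.

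The other 4 of the 10 strongest members were not of this kind. In 3 of them every NRPD1-HA summit lay inside an H3K4me3 peak. At the pseudogene AT3G43315, chr3:15270676-15272109 in the pericentromere, fold enrichment was 9.24 and 18.5 in zmp-2 against 11.5 and 14.0 in WT. A ZMP-HA peak lay 849 bases away. The higher of the region's 2 H3K4me3 peaks was 7.13-fold, with a summit outside the region and 1123 bases from the Pol IV summit. The height of the H3K4me3 peak that held the Pol IV summits is not given here. At AT5G20460, of uncharacterized product, NRPD1-HA fold enrichment was 9.56 and 10.3 in zmp-2 against 15.1 and 9.07 in WT. Its 14.9-fold H3K4me3 had a summit 25 bases from the Pol IV summit. The third, chr4:1568257-1569255, held no annotated gene. It had 6.63 and 11.1 in zmp-2 against 10.3 and 8.19 in WT. The fourth overlapped the long non-coding RNA gene AT2G09490 and had 8.73 and 13.3 in zmp-2 against 10.9 and 7.86 in WT. Its H3K4me3 overlap covered 32.3% of the region, the highest share among the members.

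H3K4me3 covered a small piece of most members. The overlap had a median of 137 bases (quartiles 105 to 189), or 12.0% of the region, and never exceeded 32.3%. At least 1 H3K4me3 peak lay wholly inside the region in 70 members, and in the other 45 a single peak crossed 1 edge. A single H3K4me3 peak was present in 105 members, 2 peaks in 7 and 3 peaks in 3. The highest H3K4me3 peak had a median fold enrichment of 5.18 (3.46 to 8.72), against 5.40 over all 23884 H3K4me3 peaks, and a median width of 191 bases against 262. The highest H3K4me3 peak touching a member was thus of usual height in these data. Its summit lay outside the region in some members, so this is not the height under the Pol IV summit. The median H3K4me3 fold enrichment was 5.07 in the 538 regions with ZMP-HA.

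**Figure D2:**
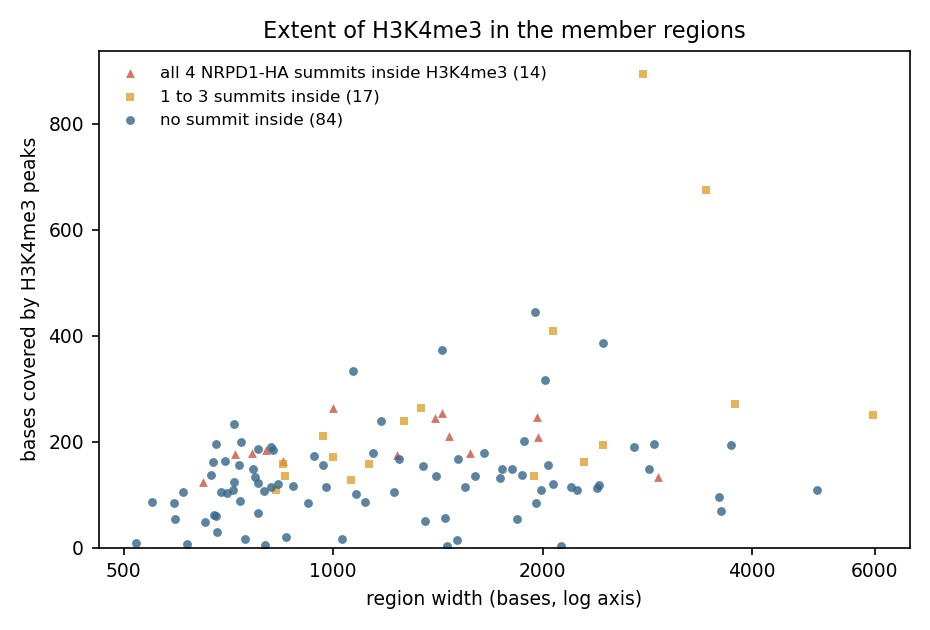
Bases of each member covered by H3K4me3 peaks against the width of the region (log axis), by how many of the 4 NRPD1-HA summits lay inside the mark. The members with 893 and 675 covered bases stand above the rest, and 84 of 115 members had no summit inside.

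The summit of NRPD1-HA usually missed the mark. No summit of the 4 libraries lay inside an H3K4me3 peak in 84 members (73.0%, interval 63.97 to 80.9), and all 4 did in 14 (12.2%). By library, the summit was inside in 24 and 19 members in zmp-2 and in 25 and 21 in WT. The regions with ZMP-HA on H3K4me3 had shares of 76.0% and 10.04%. The median distance between the Pol IV and H3K4me3 summits was 397 bases in members and 676 in the regions with ZMP-HA, which were wider.

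The 5 members with the longest overlap were spread over different settings. The longest, 893 bases over 3 H3K4me3 peaks, lay at the pseudogene AT2G04970 (chr2:1746006-1748794). It was weak for NRPD1-HA, with 2.21 and 2.998 in zmp-2 against 2.77 and 2.55 in WT. The next, 675 bases at AT5G50610 (chr5:20594212-20597644), had 6.77 and 7.96 in zmp-2 against 7.69 and 7.57 in WT. The other 3 had overlaps of 445 bases upstream of AT4G20310 (a peptidase M50 family gene), 408 bases upstream of AT5G12200 and AT5G12210, and 387 bases in chr3:16355394-16357834, which held no gene. AT5G12200 (PYD2) acts in pyrimidine breakdown, and AT5G12210 (RGTB1) encodes a RAB geranylgeranyl transferase subunit.

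The members with the highest H3K4me3 overlapped strong genic marks at 1 edge. The H3K4me3 fold enrichment was 33.6 at AT1G24490 (ALB4, a thylakoid membrane insertion protein), 28.4 at AT1G68520 (BBX14), 26.5 at AT5G46290 (KASI, of fatty acid synthesis in the plastid) and 23.9 at AT4G11100 (annotated as a gelsolin protein). Their overlaps with the mark were 163, 50, 48 and 57 bases. Only the ALB4 region held the H3K4me3 summit. At KASI, NRPD1-HA was 5.83 and 10.1 in zmp-2 against 5.41 and 6.07 in WT, with the Pol IV summit 227 bases upstream and the H3K4me3 summit 168 bases downstream of the 5′ end.

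Protein-coding 5′ ends lay within 500 bases of 74 members (64.3%, interval 54.9 to 73.1). The share was 56.5% in the regions with ZMP-HA on H3K4me3, 39.7% in those with neither, 46.8% in those with ZMP-HA alone and 46.3% in all 4138. The rule selects for H3K4me3, and 68.4% of all 23884 H3K4me3 peaks lay within 500 bases of such an end. The 5′ end lay inside the region in 47 members. The Pol IV summit was outside annotated genes in 101 members (87.8%), in coding sequence in 6, in exons outside the coding sequence in 6 and in an intron in 2. The share outside genes was 60.8% in the regions with ZMP-HA on H3K4me3 and 81.5% in those with neither.

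Where H3K4me3 marked a 5′ end, Pol IV sat upstream of it. The H3K4me3 summit was within 500 bases of a protein-coding 5′ end in 51 members. In 46 of the 51 (90.2%) the Pol IV summit was upstream of that end, at a median of −297 bases (quartiles −381 to −164), and the H3K4me3 summit was at a median of +190 bases (44 to 299.5). In 47 of the 51 the Pol IV summit was upstream of the H3K4me3 summit, and in 36 (70.6%) the 5′ end lay between the Pol IV summit upstream and the H3K4me3 summit downstream. Among the 175 such regions with ZMP-HA, the Pol IV summit was upstream of the 5′ end in 139 (79.4%), at a median of −343 bases, and the 5′ end lay between the summits in this order in 113 (64.6%).

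**Figure D3:**
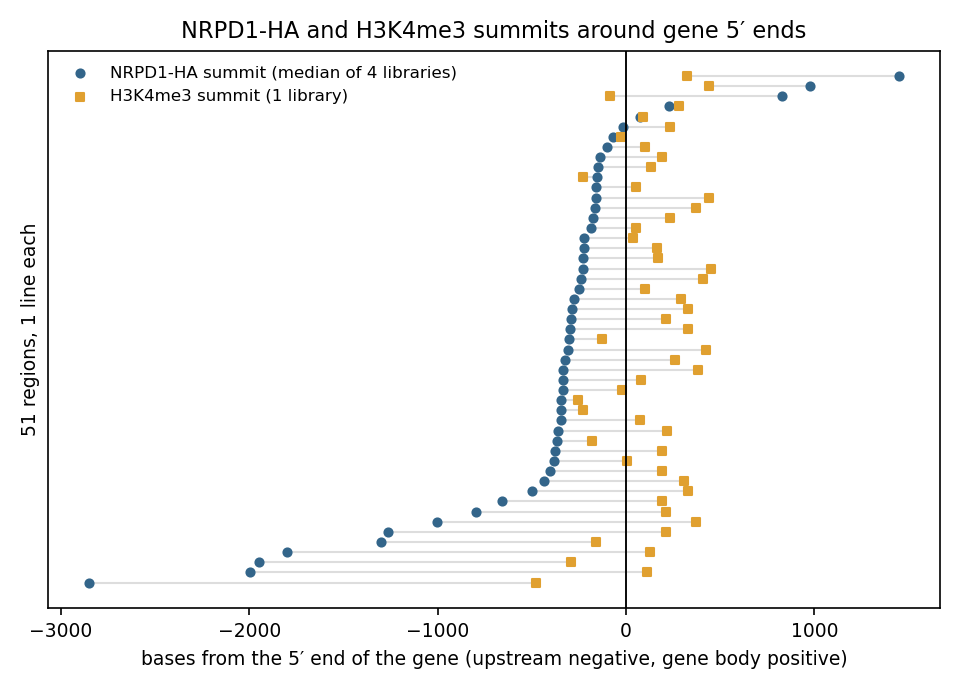
Positions of the NRPD1-HA summit (circles) and the H3K4me3 summit (squares) in bases from the 5′ end of the same gene, for the 51 members whose H3K4me3 summit lay within 500 bases of a 5′ end. In 46 of the 51 the circle is upstream of the 5′ end.

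Counting genes overlapped by a member or with a 5′ end at most 500 bases from it, there were 126. Of these, 103 were protein-coding (81.7%), 10 were pseudogenes (7.94%), 4 were microRNA genes and 9 other non-coding RNA genes. None was a tRNA, snRNA or snoRNA gene. In the regions with ZMP-HA on H3K4me3, 50.1% of 1016 genes were protein-coding and 41.9% pseudogenes, and in the regions with neither, 79.2% of 1004 were protein-coding and 11.5% pseudogenes. By the words of their products, 6 genes of the members coded for transcription factors (ZFP4, BBX14, MYB14, WRKY43, GATA14 and FBH2) and 2 for F-box proteins. These are 4.76% and 1.59% of the 126 genes, against 1.77% and 2.08% of the 4913 genes at all regions. Only protein-coding genes were classed by product, and they made up just 58.8% of the 4913. Among protein-coding genes, transcription factors were 6 of 103 at members and 87 of 2890 at all regions. F-box proteins were 2 of 103 and 102 of 2890. No product named a disease resistance protein or a transposable element, and these made up only 0.977% and 0.590% of the 4913, so that counts of 0 among 126 genes say little. The auxin response factor genes ARF14 and ARF21 were also near members but their products lack these words.

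**Figure D4:**
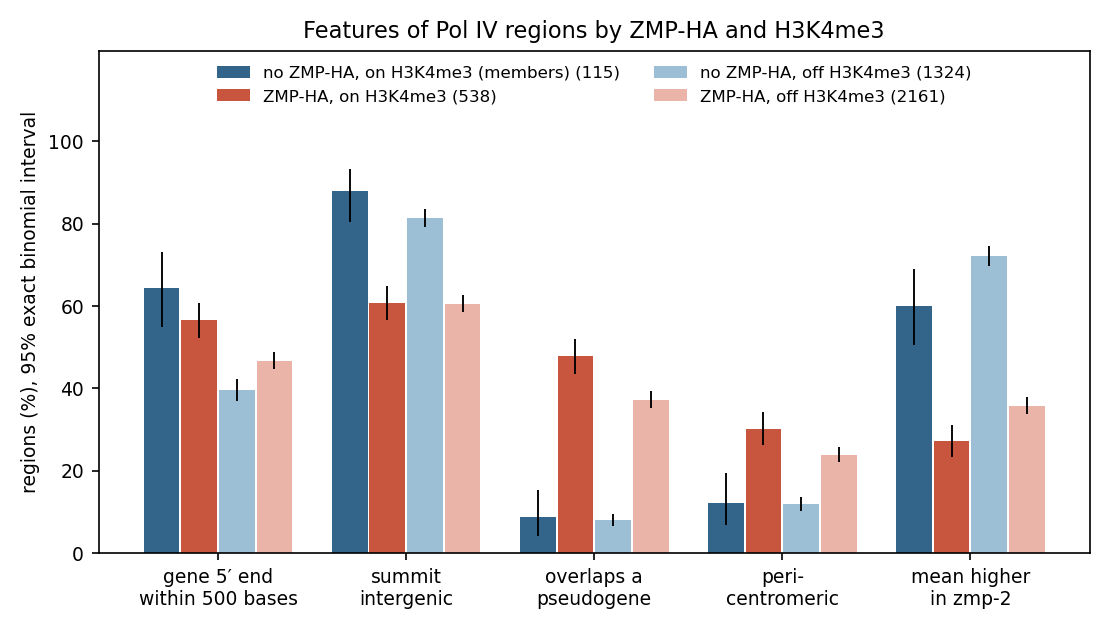
Shares of regions with each feature, with 95% exact binomial intervals that cover counting error over regions only, for the 115 members and the other 3 kinds of Pol IV region. Members share a low pseudogene and pericentromeric share with regions off H3K4me3 without ZMP-HA, and a high share of nearby 5′ ends with regions on H3K4me3 with ZMP-HA.

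Among 27 genes of RNA-directed DNA methylation and other silencing, only NRPD1 (AT1G63020) lay at a member, and 1 more, CLSY4, a chromatin remodeller that brings Pol IV to its sites, lay at another of the 4138 regions. An H3K4me3 peak was within 500 bases of the 5′ end in 23 of the 27. Of 13 genes that write or erase H3K4 methylation, 12 had such a peak and none lay at any of the 4138 regions. The member at NRPD1, chr1:23362311-23363250, had a fold enrichment of 4.22 and 9.003 in zmp-2 against 5.04 and 6.78 in WT, with its summit 239 bases upstream of the gene. Its background coverage was 2.87 and 2.98 times the usual level of the library in zmp-2, and 8.08 and 6.85 times in WT. It was the only member above 1.5 times in any library. The transgene carries the NRPD1 gene with its own promoter, so reads from the native locus and the transgene cannot be told apart here.

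Of the 4 microRNA genes at members, the 3 with the best ranked regions are given. At AT3G07065 (MIR8165), in a region that also covers GATA14, NRPD1-HA was 7.46 and 8.11 in zmp-2 against 5.23 and 3.52 in WT. At AT1G52185 (MIR406) it was 4.53 and 7.31 in zmp-2 against 3.92 and 3.74 in WT. At AT5G07055 (MIR5665) it was 2.93 and 4.71 in zmp-2 against 2.54 and 4.00 in WT. Both zmp-2 values were above both WT values at MIR8165 and MIR406 after centring, and none of these regions passed the test below.

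Whether NRPD1-HA at the members depended on ZMP was asked by limma on log2 fold enrichment, centred on the median of each library and fitted over all 4138 regions with Benjamini-Hochberg adjustment. With 2 libraries against 2, p-values measure the spread between these libraries. No member was called higher in zmp-2 at an adjusted p under 0.05, against 0.628% of all regions, and 3 members (2.61%) were called lower, against 4.01%. At an unadjusted p under 0.05, 10 members (8.70%) were higher, against 5.36% of all regions, and 8 (6.96%) were lower, against 11.9% of all regions. Of the 1324 regions with neither ZMP-HA nor H3K4me3, 140 were higher and 79 lower at this threshold. A region had to have a peak in both genotypes to be a member, so that full losses and gains could not enter. Leaving out WT replicate 2 or zmp-2 replicate 1 gave member calls in both directions, and so did the fit without centring. Leaving out either WT replicate changed the number called over all regions. A fit without 1 library leaves 1 library in that genotype. Over all regions the calls were 26 higher and 166 lower, and with quantile normalization 28 and 79. With the replicate number as a block, 24 members were called higher and 11 lower, against 458 and 728 of all 4138 regions. No label ties a replicate number to a batch.

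The median centred difference was 0.12 on the log2 scale (quartiles −0.10 to 0.36), against 0.18 in the 1324 regions with neither, −0.20 in the 538 with ZMP-HA on H3K4me3, −0.12 in the 2161 with ZMP-HA alone, and −0.04 over all 4138. The member median depended on single libraries: leaving out zmp-2 replicate 2 gave 0.04, and leaving out WT replicate 1 or 2 gave 0.02 or 0.20. Before centring, the mean over libraries was higher in zmp-2 in 69 of 115 members (60.0%), against 47.0% of all 4138 regions. The share was 72.3% in the 1324 regions with neither, 35.8% in those with ZMP-HA alone and 27.1% in those with ZMP-HA on H3K4me3. After centring, both zmp-2 libraries stood above both WT libraries in 35 members (30.4%), against 19.1% of all regions. Both stood below in 14 members (12.2%), against 23.6%. Of the 1324 regions with neither, 430 were above and 160 below in this way. Of the 538 with ZMP-HA on H3K4me3, 44 were above and 188 below. The excess above was thus not particular to the members, as the regions with neither had it too. Within the members the median difference was 0.21 in the 84 with no summit inside H3K4me3 and −0.08 in the 14 with all 4 inside. It was −0.13 in the pericentromere and 0.14 in the arms.

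**Figure D5:**
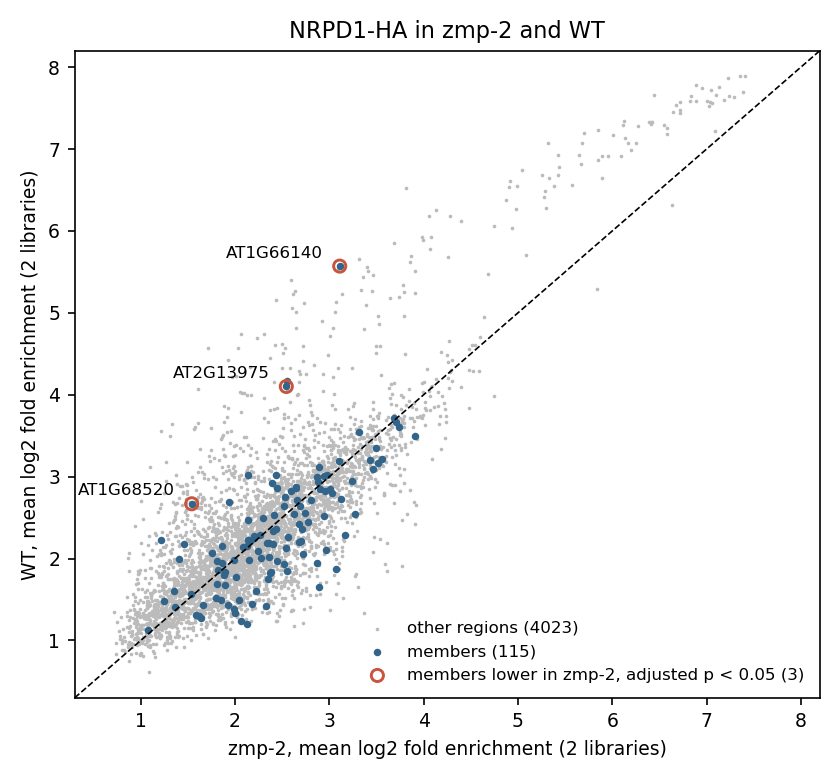
Mean log2 fold enrichment of NRPD1-HA in zmp-2 (horizontal) and WT (vertical), 2 libraries each, for 115 members and 4023 other regions, with the line of equality dashed. The 3 circled members, at AT1G66140, AT2G13975 and AT1G68520, were lower in zmp-2 at an adjusted p under 0.05.

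The largest fall was upstream of AT1G66140 (ZFP4, a C2H2 zinc finger protein). The region chr1:24621902-24625635 had a fold enrichment of 5.54 and 13.5 in zmp-2 against 37.9 and 59.5 in WT. The zmp-2 level was 0.181 times that of WT (log2 difference −2.47 ± 0.41 SE, limma adjusted p = 0.0276). By fold enrichment it stood at percentiles 82.0 and 96.5 of the peaks in the zmp-2 libraries, against 98.5 and 98.8 in WT, so that zmp-2 replicate 2 was close to WT by this measure. Its Pol IV summit lay 1998 bases upstream of the gene, whereas H3K4me3 of 7.70-fold lay 112 bases inside it, and the nearest ZMP-HA peak was 1224 bases from the region. With quantile normalization the difference was −1.79 and the limma adjusted p 0.0585.

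The second called member, chr2:5865588-5869176 at the edge of the pseudogene AT2G13975 in the pericentromere, had 4.93 and 6.90 in zmp-2 against 20.0 and 14.7 in WT. The zmp-2 level was 0.338 times that of WT (−1.57 ± 0.24, limma adjusted p = 0.0245). A ZMP-HA peak lay 847 bases away. The third, chr1:25708514-25709870 within AT1G68520 (BBX14, a B-box zinc finger protein with a CCT domain), had 2.47 and 3.43 in zmp-2 against 6.81 and 5.95 in WT (0.455 times, −1.14 ± 0.24, limma adjusted p = 0.0463). Its summit lay in coding sequence, 1521 bases into the gene. This call was lost when WT replicate 2 or either zmp-2 replicate was left out (limma adjusted p 0.0561 to 0.168), and without centring, with quantile normalization or with the mean over peaks (limma adjusted p 0.0543 to 0.0723).

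A region with no gene, chr3:3742613-3744261, had 3.88 and 8.84 in zmp-2 against 15.3 and 21.1 in WT, and its difference of −1.63 ± 0.37 did not pass (limma adjusted p = 0.0550). It passed without either WT replicate, without zmp-2 replicate 2 and without centring (limma adjusted p 2.14e-05 to 0.0210). The libraries of the genotypes did not overlap in it or in the 3 called members.

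The 3 largest positive differences did not pass the test with all 4 libraries. Upstream of AT4G18470 (SNI1, a negative regulator of systemic acquired resistance), chr4:10192213-10192886 had 5.47 and 10.1 in zmp-2 against 2.81 and 3.50 in WT (1.24 ± 0.31, limma adjusted p = 0.0754). At AT1G28480 (GRX480, a glutaredoxin of salicylic acid signalling), chr1:10012853-10014022 had 6.05 and 11.7 in zmp-2 against 3.54 and 3.79 in WT (1.19 ± 0.29, limma adjusted p = 0.0725). Without WT replicate 2, without zmp-2 replicate 1 or without centring both passed, with limma adjusted p of 0.0042 to 0.0355 at SNI1 and 0.0124 to 0.0462 at GRX480. Both lie in the arms with no ZMP-HA peak within 5000 bases. The region chr4:7170942-7171793, with no gene, had 3.08 and 6.22 in zmp-2 against 1.65 and 3.21 in WT (0.92 ± 0.43, limma adjusted p = 0.350). Its difference was 0.30 without WT replicate 1 and 1.52 without WT replicate 2 (limma adjusted p = 0.0042). After centring, both zmp-2 values stood above both WT values at SNI1 and GRX480, whereas in the region with no gene the lower zmp-2 value and the higher WT value were nearly equal (−0.385 and −0.391 on the log2 scale).

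ZMP-HA was not far from many members. The nearest ZMP-HA peak lay a median of 5478 bases away (quartiles 1762 to 13403), with 18 members within 1000 bases and 53 within 5000. In the regions without ZMP-HA and H3K4me3 the median was 7538 bases. The closest, 162 bases, was at the pseudogene AT2G05130, with 2.86 and 4.61 in zmp-2 against 4.46 and 3.33 in WT. The farthest, 113156 bases, was at AT5G18030, a SAUR-like auxin-responsive gene, with 3.59 and 7.31 in zmp-2 against 3.15 and 5.21 in WT. The genotypes overlapped in both regions.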

How the data were processed

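Peak lists from ChIP-seq of inflorescences were analysed. The input libraries were used by the authors as controls in peak calling. Per the submitters' processing notes and the study's methods, the authors trimmed reads with Trim Galore 0.4.3, aligned them to TAIR10 with Bowtie2 2.2.9 and called peaks per library with MACS2 2.2.6 against input. How reads that align to several places were treated, and which input served which library, are not given in the sources used here. Each deposited peak has a score, a summit fold enrichment (the authors' linear ratio to background), a −log10 p-value and a −log10 q-value, and no deposited q-value exceeded 0.05. They hold no read counts, so no test on reads was run. 

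A region's value was its highest peak in each library. The centred log2 fold enrichment was tested with limma 3.58.1 (R 4.3.3), checked on simulated data. Shares have exact (Clopper-Pearson) 95% intervals, which cover counting error only. Background coverage was solved from the deposited fold enrichment and p-value. In the NRPD1-HA lists, the usual level rebuilt the p-values of 86.0% to 89.4% of the peaks checked within 1%. For H3K4me3 it did so for 86.6%. A member's own level was solved from its highest peak in each library. Genes were those of RefSeq TAIR10.1, whose nuclear chromosomes have the TAIR10 lengths, and 0 peaks ran past a chromosome end. Of its genes, 27444 were protein-coding. Pericentromeric windows had a mean protein-coding gene density (100 kb windows, mean over 1 Mb) under 50% of the chromosome's median. Transposable element annotation was not used here. Absence from a list does not mean absence of the protein, above all in a shallow library.

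Members named were the 10 with the best worst rank, the 5 with the longest H3K4me3 overlap, the 4 with the highest H3K4me3, the 3 largest differences each way, those at silencing, H3K4 methylation or small RNA genes (the 3 best), and the nearest to and farthest from ZMP-HA. The members and lists were chosen with earlier results of these data known. Alternatives were other peak thresholds, overlaps, control removals, list lengths, scalings and a replicate block, and leaving out each library.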

Additional observations from a re-analysis of the deposited data

How the results depend on the processing

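Most alternatives left the number of members within 1.5 times of 115, with 82 to 116 under other peak thresholds, overlaps between lists, control removals and list lengths, and 106 to 166 when 1 library was left out. An H3K4me3 overlap of at least 150 bases moved it to 48, with a 5′ end within 500 bases in 52.1% and a median overlap of 193 bases, which that setting selects for. Counting 5′ ends within 1000 bases gave 76.5%. The median overlap was 136 to 151.5 bases without 1 library, and the share near a 5′ end 56.2% to 64.8%. Regions called by limma numbered 192 in all and 3 among members. They were 155 to 337 in all and 2 to 9 among members without 1 library. Where each list had to cover 50% of the region they were 11 and 0, with fewer regions tested, and with quantile normalization 107 and 1. Without centring they were 230 in all (38 higher, 192 lower) and 5 among members (2 higher, 3 lower). A fit with 1 library in a genotype assumes that it varies like the other. Of 56 refits of the 7 members with a tested difference, 34 left the call as it was, 15 brought the adjusted p under 0.05 and 7 lost it, and none changed the direction.

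Replicate numbers were shared by the genotypes. Deviations of same-numbered libraries correlated at 0.705 over all regions and 0.770 over members, but with 2 pairs, and no label that ties a number to a batch, this is a hint only. With the replicate block 1186 regions were called (458 higher, 728 lower), of which 35 were members (24 higher, 11 lower). The cause was not tested.

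The background level was lowest in H3K4me3, which had 1 library, so by this measure its list was the most limited. The q-value threshold of 0.01 and H3K4me3 peaks of at least 2-fold left 115 members.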
